A study of Saccharomyces cerevisiae with 6 samples.

Results

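The genes described here encode the Snf1 protein kinase complex of Saccharomyces cerevisiae, the kinases that activate it and the phosphatase that switches it off. They were chosen by name and number 10 of the 5113 genes in the unfiltered count table: SNF1, SNF4, SIP1, SIP2, GAL83, SAK1, TOS3, REG1, REG2 and GLC7. All 10 passed the filter on low counts and stood among the 5011 genes tested. Wild-type cells of the strain BY4741 (MATa, with deletions in HIS3, LEU2, MET15 and URA3) were grown at 30 °C to an OD600 of 0.45 in synthetic medium with 2% sucrose. The Sucrose group (3 cultures) was harvested directly from this medium. The NoSucrose group (3 cultures) was grown in the same way, filtered onto a membrane, and moved for 16 min to sucrose-free medium containing 2% glycerol and 2% ethanol. Filtration and transfer accompanied the loss of sucrose, and their part in any difference cannot be told apart from it.

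Snf1 is the yeast AMP-activated protein kinase, which is needed for growth when glucose is scarce and on carbon sources such as sucrose, glycerol and ethanol. The active enzyme is a trimer of the catalytic alpha subunit Snf1, the gamma subunit Snf4 and one of the beta subunits Sip1, Sip2 or Gal83, which act as scaffolds and set where in the cell the kinase goes. Activity requires phosphorylation of a threonine in the activation loop by one of the kinases Sak1, Tos3 and Elm1. When glucose is plentiful, the protein phosphatase 1 catalytic subunit Glc7, directed by Reg1, removes this phosphate. These regulatory steps act on proteins, which were not measured in these libraries. Snf1 kinase activity was therefore not measured either.

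Library totals ran from 25106494 to 33651822 estimated counts, and a tested gene had a median of 2065 in one library. Between 177 and 9931 counts were assigned to a member in a library. Values below are CPM, counts per TMM-scaled library total in the usual unit, which are relative to the other mRNAs of a library. In bulk RNA of a culture, a change in mRNA per cell and a change in the mix of cells cannot be told apart. The strain's markers were checked against its labels. LEU2 and URA3 had 0 counts in every library, which allows at most 3 counts a library, and the a-mating-type receptor gene STE2 had 5104 to 13953 counts against 174 to 264 for its alpha counterpart STE3. The a-specific genes MFA1, MFA2 and BAR1 had 1039 to 7523 counts and the alpha pheromone genes at most 18, but the alpha-agglutinin gene SAG1, with 720 to 1125, overlapped MFA1. MET15 was not found under that name in the unfiltered count table and has no value here. HIS3, in which the strain's deletion removes only a part, had 1164 to 3414 counts.

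After sucrose withdrawal, 2 of the 10 transcripts rose more than 2-fold: REG2, by 7.23-fold, and SIP2, by 2.97-fold. A further 4, TOS3, SNF1, SIP1 and GAL83, rose by 1.29-fold to 1.62-fold. The transcripts of SNF4 and GLC7 lay 1.08-fold and 1.09-fold higher, and SAK1 and REG1 did not pass the test. No member fell. Genes were called at an adjusted p below 0.05 together with a fold change above 2 (edgeR's quasi-likelihood test with Benjamini-Hochberg adjustment over the 5011 genes). By this rule 2 of 10 members were called, against 18.7% of all tested genes, and both were higher, against 12.7% of genes called higher and 6.03% called lower. At an adjusted p below 0.05 and any fold change, 8 of 10 members passed and all 8 were higher, whereas 82.0% of all genes passed, 42.2% higher and 39.8% lower. The number of members called is thus close to the background. Of all genes called, 67.8% were higher, so the direction of 2 calls does not set the members apart. The 8 members that passed at any fold change include SNF4 and GLC7, which passed in 5 and 6 of 12 alternative settings. All 8 were higher, where the tested genes split almost evenly, a difference in direction described here without a test. No member was lower at an unadjusted p below 0.05 by edgeR or by DESeq2. The median log2 fold change of the 10 members was 0.42, beside 0.03 over all tested genes. The 3 libraries of one condition lay entirely above the 3 of the other for 8 of 10 members, a separation found for 84.8% of tested genes.

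**Figure D1:**
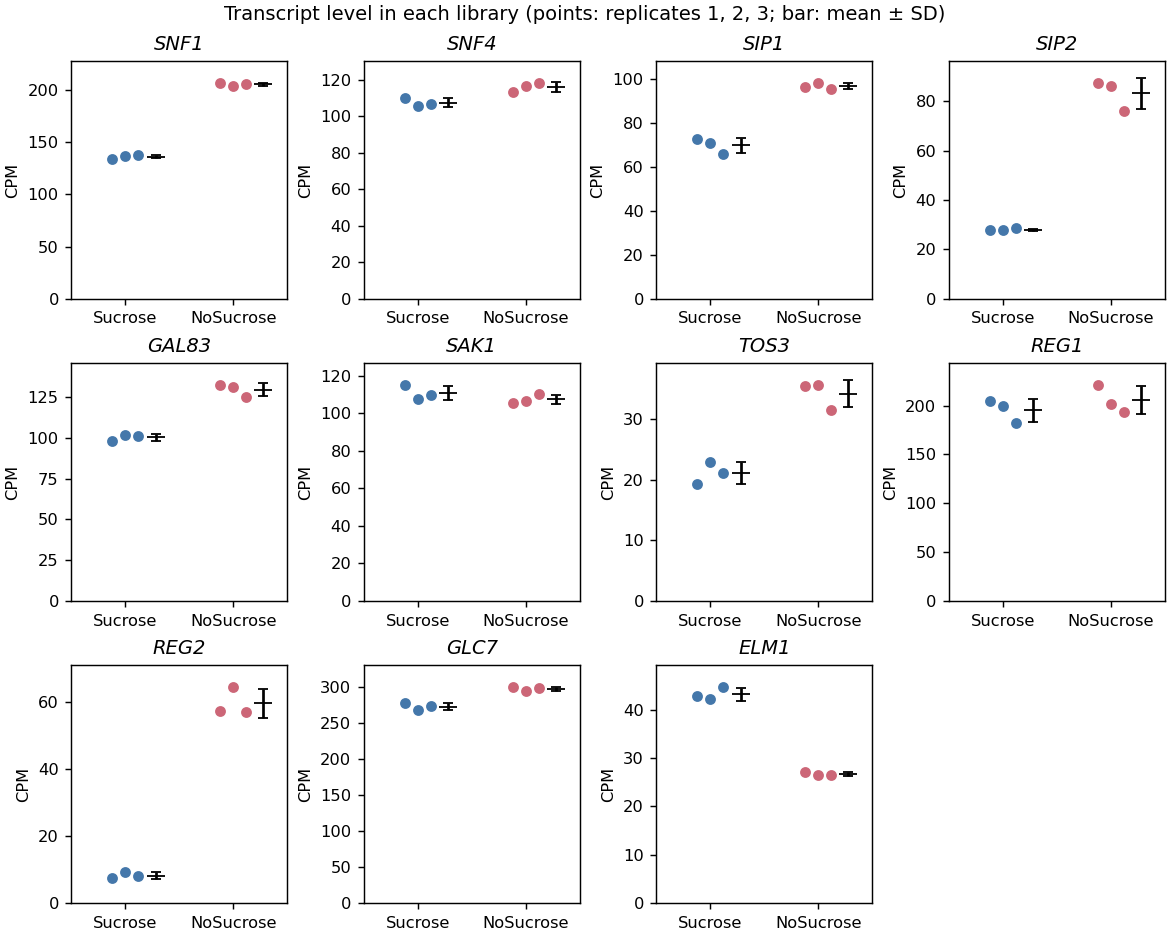
Transcript levels of the 10 members and of ELM1 in CPM (vertical axes, from 0), with a point for each Sucrose (blue) and NoSucrose (red) library and the mean ± SD (n = 3) beside the points. REG2 lay between 7.32 and 9.16 CPM with sucrose and between 57.0 and 64.7 CPM after withdrawal, while the points of SAK1 and REG1 overlap between the conditions.

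SNF1 (YDR477W, chromosome IV, 1412373 to 1414274, plus strand, in R64) encodes the catalytic subunit. Its activation-loop threonine, codon 210, is the residue on which the upstream kinases and the Glc7 phosphatase act, so the reference coding sequence around it is shown, from RefSeq R64 (chrIV:1412970-1413032, plus strand). The 63 bases run from codon 200 to codon 220, and the capitals mark codon 210.

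SNF1 activation loop: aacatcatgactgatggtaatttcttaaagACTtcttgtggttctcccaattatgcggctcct

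The SNF1 transcript stood at 134, 136 and 137 CPM in Sucrose replicates 1, 2 and 3 and at 206, 204 and 205 CPM in NoSucrose replicates 1, 2 and 3. Every NoSucrose library thus lay above every Sucrose library, and replicates differed by a few CPM. This was a 1.51-fold increase (log2 fold change 0.59, standard error 0.04, adjusted p = 3.84e-06, edgeR). It stayed below the 2-fold threshold, and 21.7% of all tested genes had a larger log2 fold change.

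SNF4 (YGL115W, chromosome VII, 292033 to 293001, plus strand) encodes the gamma subunit, which binds adenine nucleotides and relieves the autoinhibition of Snf1. It had 110.3, 106 and 107 CPM with sucrose and 113, 117 and 118 CPM after its withdrawal. The conditions did not overlap, but the gap between the highest Sucrose and the lowest NoSucrose library was narrower than the spread within either condition. The log2 fold change was 0.11 (standard error 0.04, adjusted p = 0.0257, edgeR). This adjusted p was below 0.05 in 5 of 12 alternative settings and reached 0.115 in the others, so the increase of SNF4 was at the limit of what these libraries resolve.

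Relative to SNF1, the gamma subunit transcript fell. Levels of different genes are compared here per kilobase of coding length (CPM per kb). The log2 ratio of SNF4 to SNF1 per kb was 0.69, 0.61 and 0.61 in the Sucrose libraries and 0.11, 0.17 and 0.18 in the NoSucrose libraries. These 2 transcripts were therefore nearly equal per kb after withdrawal, at 108 ± 0.779 CPM per kb for SNF1 and 119.9 ± 2.63 CPM per kb for SNF4 (SD, n = 3). The groups did not overlap, and the difference of -0.48 in the log2 ratio had the smallest p that 3 libraries against 3 allow (exact permutation test, two-sided, p = 0.1).

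The beta subunits shared a direction but not a size of change. SIP2 (YGL208W, chromosome VII, 97338 to 98585, plus strand), whose product holds part of the kinase in the cytoplasm, had 27.7, 27.9 and 28.5 CPM in the Sucrose libraries and 87.5, 86.3 and 76.0 CPM in the NoSucrose libraries. All libraries after withdrawal were far above those before it, with replicate 3 the lowest of them. The increase was 2.97-fold (log2 fold change 1.57, standard error 0.06, adjusted p = 3.46e-07, edgeR), with a 95% confidence interval from 2.69-fold to 3.28-fold. It remained called in all 12 alternative settings, with log2 fold changes from 1.53 to 1.68, and 6.83% of tested genes had a larger one.

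GAL83 (YER027C, chromosome V, 208979 to 210232, minus strand) is the paralog of SIP2, and its product directs Snf1 to the nucleus when glucose is low. It stood at 98.0, 102 and 101 CPM with sucrose and at 133, 131 and 125 CPM without. The conditions were separate, and GAL83 rose 1.29-fold (log2 fold change 0.37, standard error 0.04, adjusted p = 5.93e-05, edgeR). SIP1 (YDR422C, chromosome IV, 1315326 to 1317773, minus strand), whose product can bring the kinase to the vacuolar membrane, had 72.7, 71.0 and 66.1 CPM with sucrose and 96.4, 98.4 and 95.5 CPM without. It rose 1.38-fold (log2 fold change 0.47, standard error 0.04, adjusted p = 2.49e-05, edgeR), again with no overlap between conditions. Both stayed below the 2-fold threshold.

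As a result the makeup of the beta subunit transcripts shifted toward SIP2. Of the summed counts per kb of the 3 genes, SIP2 made up 17.1%, 16.8% and 17.5% in the Sucrose libraries and 32.6%, 32.3% and 30.5% in the NoSucrose libraries. The share of GAL83 went from 61.1 ± 0.901% to 49.3 ± 0.559% and that of SIP1 from 21.8 ± 1.08% to 18.9 ± 0.618% (SD, n = 3). GAL83 was the most abundant of the 3 per kb in each library, and SIP2 went from the lowest to the second place. None of the 3 shares overlapped between conditions (exact permutation test, two-sided, p = 0.1 for each, the smallest possible). The summed level of the beta subunits rose from 131 ± 1.44 to 209.7 ± 8.65 CPM per kb (SD, n = 3), 1.60 times its former level, beside 1.51 times for SNF1 and 1.08 times for SNF4.

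**Figure D2:**
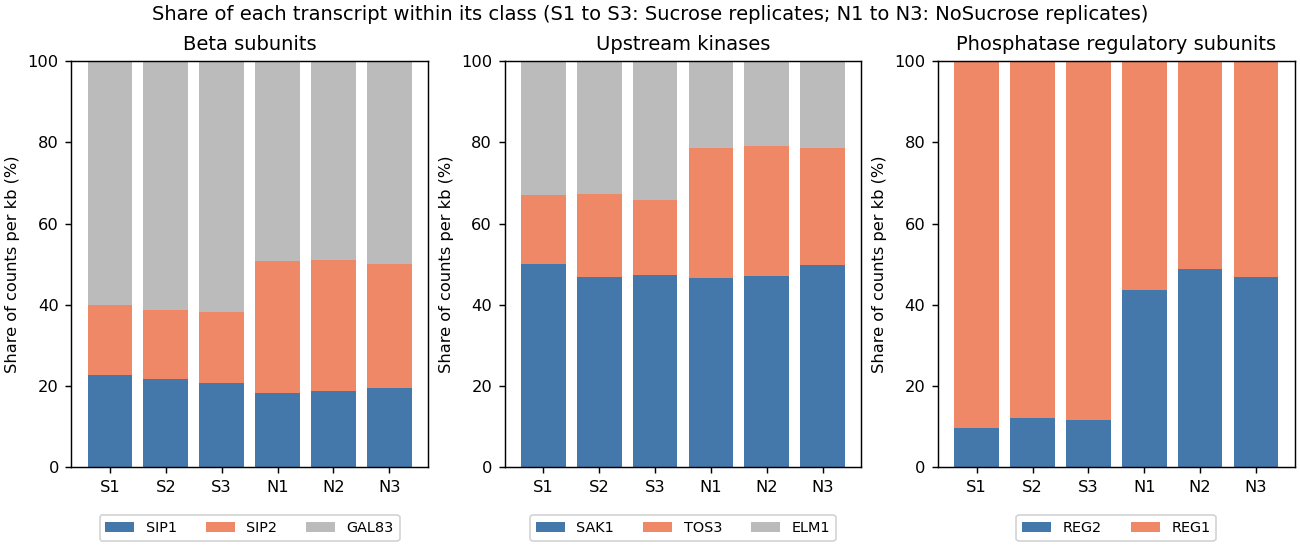
Share of each transcript in the summed counts per kb of its class (vertical axes, in percent, from 0) for the 3 Sucrose libraries (S1 to S3) and the 3 NoSucrose libraries (N1 to N3). SIP2, TOS3 and REG2 each take a larger part of their class in all NoSucrose libraries, REG2 rising from between 9.68% and 12.1% to between 43.7% and 48.9%.

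Among the upstream kinases, the 3 transcripts went in different directions. TOS3 (YGL179C, chromosome VII, 163409 to 165091, minus strand) had 19.2, 22.9 and 21.1 CPM in the Sucrose libraries and 35.4, 35.6 and 31.5 CPM in the NoSucrose libraries. It rose 1.62-fold (log2 fold change 0.69, standard error 0.08, adjusted p = 8.66e-05, edgeR) with separate conditions, and passed an adjusted p of 0.05 in all 12 alternative settings. SAK1 (YER129W, chromosome V, 417281 to 420709, plus strand), the paralog of TOS3 and the kinase with the largest part in activating Snf1 in cells on glucose-poor medium, had 115, 108 and 110.0 CPM with sucrose and 106, 107 and 110.2 CPM without. These ranges overlapped. The log2 fold change was -0.05 (standard error 0.04, adjusted p = 0.313, edgeR) with a 95% confidence interval from -0.14 to 0.05, which is 0.906-fold to 1.03-fold. Its sign depended on the scaling, as it became 0.07 with library size alone.

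ELM1 (YKL048C, chromosome XI, 347214 to 349136, minus strand), the remaining upstream kinase, which also acts in bud morphogenesis, was not among the 10 members and is given for comparison. It stood at 42.8, 42.2 and 44.8 CPM in the Sucrose libraries and at 27.1, 26.5 and 26.5 CPM in the NoSucrose libraries, with no overlap. Its decrease was 0.618-fold (log2 fold change -0.69, standard error 0.05, edgeR adjusted p = 4.41e-06), a change that did not reach 2-fold. TOS3 and ELM1 thus changed by about the same log2 amount in opposite directions.

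The 3 upstream kinases together changed little, from 67.4 ± 0.467 CPM per kb with sucrose to 65.5 ± 0.746 CPM per kb after withdrawal (SD, n = 3). Their sum was lower in every NoSucrose library (64.7 to 66.1) than in any Sucrose library (67.0 to 67.9), a difference that was not tested. Within this sum TOS3 went from 18.6 ± 1.65% to 31.0 ± 1.74% and ELM1 from 33.4 ± 0.811% to 21.2 ± 0.287%, each without overlap (exact permutation test, two-sided, p = 0.1). SAK1 remained the most abundant of the 3, at 48.1 ± 1.65% and 47.8 ± 1.64% (exact permutation test, two-sided, p = 0.6).

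REG2 (YBR050C, chromosome II, 337183 to 338199, minus strand) encodes a regulatory subunit of Glc7 and is the paralog of REG1. It had the largest change of the 10 members. The transcript stood at 7.32, 9.16 and 8.11 CPM in the Sucrose libraries, from 177, 297 and 240.2 estimated counts, and at 57.3, 64.7 and 57.0 CPM in the NoSucrose libraries, from 1561, 1769 and 1896. The conditions were far apart beside the spread within each. The increase was 7.23-fold (log2 fold change 2.85, standard error 0.09, adjusted p = 1.66e-07, edgeR), with a 95% confidence interval from 6.23-fold to 8.39-fold. Only 2.55% of tested genes had a larger log2 fold change, and the value stayed between 2.78 and 2.97 over the 12 alternative settings.

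REG1 (YDR028C, chromosome IV, 497835 to 500879, minus strand) encodes the subunit through which Glc7 acts on Snf1 in glucose medium. Its transcript stood at 204, 199.9 and 182 CPM with sucrose and at 221, 202 and 194 CPM without, ranges that overlapped. The log2 fold change was 0.07 (standard error 0.07, adjusted p = 0.343, edgeR), with a 95% confidence interval from -0.09 to 0.23. With library size alone as the scaling it was 0.19 (adjusted p = 0.0333), the only setting in which REG1 passed.

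Per kb of coding length, the paralogs therefore came close to each other. REG2 made up 9.68%, 12.1% and 11.8% of the summed counts per kb of REG1 and REG2 in the Sucrose libraries and 43.7%, 48.9% and 46.8% in the NoSucrose libraries. The mean share went from 11.2 ± 1.30% to 46.5 ± 2.65% (SD, n = 3), a difference of 35.3 percentage points with no overlap (exact permutation test, two-sided, p = 0.1). Without division by coding length the difference was 18.5 percentage points, as REG1 is the longer gene and its 206 ± 14.2 CPM after withdrawal stayed above the 59.7 ± 4.33 CPM of REG2 (SD, n = 3). Together the 2 transcripts went from 72.3 ± 3.87 to 126 ± 5.70 CPM per kb.

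GLC7 (YER133W, chromosome V, 432495 to 433958, plus strand, with coding sequence in 2 exons) encodes the only protein phosphatase 1 catalytic subunit of yeast, an essential enzyme that Reg1 and many other subunits direct to its substrates. It stood at 278, 268 and 274 CPM in the Sucrose libraries and at 301, 295 and 298 CPM in the NoSucrose libraries. The conditions did not overlap. The change was 0.13 on the log2 scale (edgeR, standard error 0.04) with an adjusted p of 0.0252, which passed 0.05 in 6 of 12 alternative settings and reached 0.106 in the others. As SNF1 rose more, the log2 ratio of GLC7 to SNF1 per kb went from 2.03 ± 0.04 to 1.56 ± 0.003 (SD, n = 3), without overlap (exact permutation test, two-sided, p = 0.1).

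**Figure D3:**
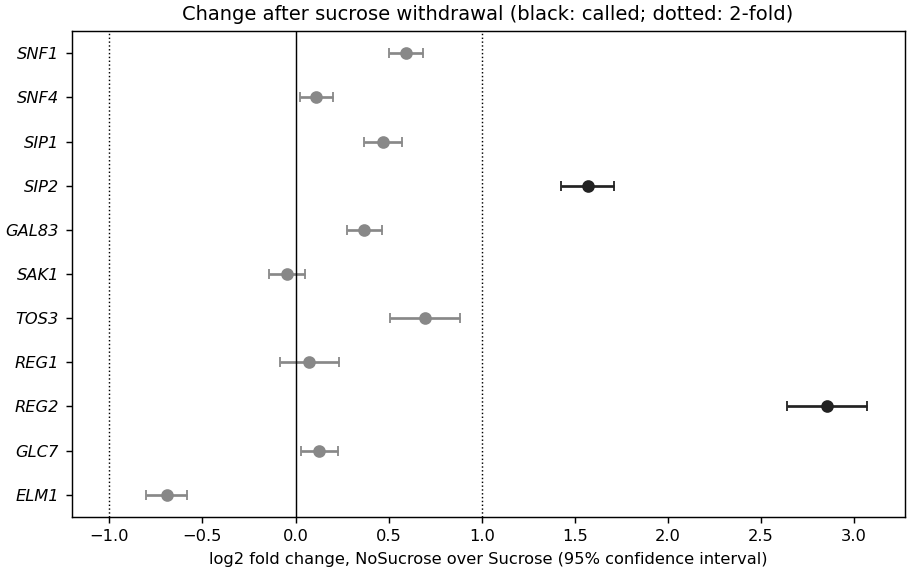
Log2 fold change after sucrose withdrawal (horizontal axis) for each member and ELM1, with its 95% confidence interval from the edgeR fit. REG2 at 2.85 and SIP2 at 1.57 are the 2 members beyond the dotted 2-fold lines, the intervals of SAK1 and REG1 include 0, and ELM1 is the one transcript with an interval entirely below 0.

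Of the 9 shares and ratios compared between conditions, 8 had p = 0.1 and SAK1's share had p = 0.6, and the adjusted values were 0.113 and 0.6 (exact permutation tests with Benjamini-Hochberg adjustment over the 9). No such comparison can pass 0.05 with 3 libraries against 3. Shares within a class sum to 100%, so they are not independent of one another.

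Per kb of coding length, the order of the 10 members in sucrose medium was GLC7, SNF4, GAL83, SNF1, REG1, SAK1, SIP1, SIP2, TOS3 and REG2. GLC7 stood at 291 ± 5.55 and REG2 at 8.06 ± 0.911 CPM per kb (SD, n = 3), and no neighbors in this order overlapped between libraries. GLC7 lay above 88.9% of the tested genes with a known coding length, SNF1 above 61.6%, and REG2 above 7.05%. After withdrawal SNF1 stood above GAL83, and REG2, at 58.7 ± 4.25 CPM per kb, had passed SIP1, SAK1 and TOS3. SIP2 overlapped with both REG1 and REG2 in this order, at 66.7 ± 5.05 CPM per kb, and no other neighbors overlapped. TOS3 was then the lowest member at 20.3 ± 1.36 CPM per kb. The catalytic phosphatase transcript was thus the most abundant member in both conditions, and the members that rose most were among the least abundant with sucrose.

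**Figure D4:**
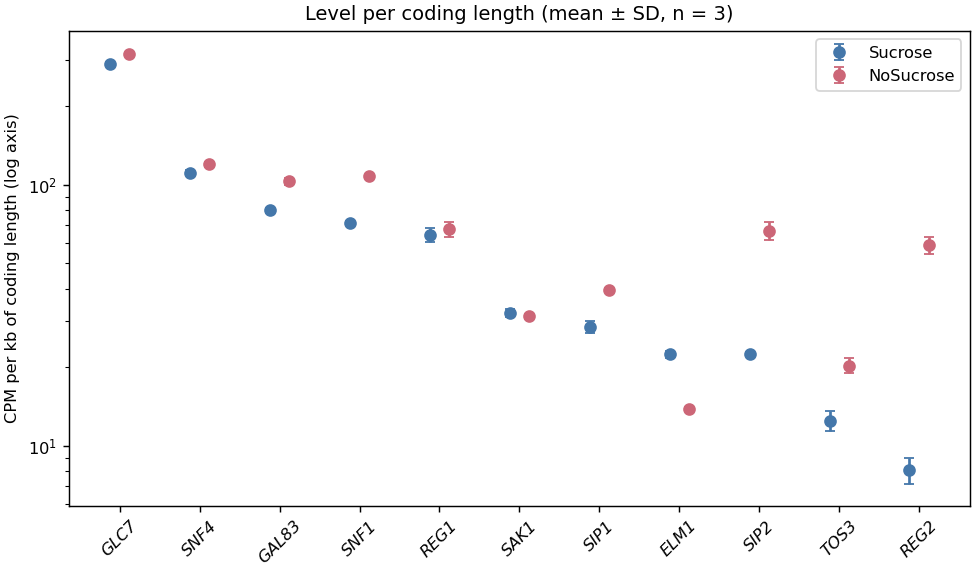
Level of each member and ELM1 in CPM per kb of coding length (vertical log axis) as the mean ± SD of the 3 Sucrose (blue) and the 3 NoSucrose (red) libraries, ordered by the Sucrose mean. GLC7 is highest in both conditions, and REG2 moves from the lowest member, at 8.06, to 58.7 CPM per kb.

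Reads of the paralogs could be told apart, since the longest run of bases shared by 2 coding sequences was 17 for SIP2 and GAL83, 15 for SAK1 and TOS3 and 12 for REG1 and REG2, all far below the read length of 50 nt. No member overlapped another annotated gene in R64.

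The sequences before the start codons of all 10 members were examined for 2 elements of carbon and stress regulation. The core of the site of the glucose repressor Mig1 was searched as GCGGGG, as CCGGGG, as GTGGGG and as CTGGGG, and the stress response element (STRE), the site of Msn2 and Msn4, as AGGGG, on both strands of the 500 bases before the start codon. The base before GGGG is A in the STRE and C or T in the Mig1 core, so no run of 4 G is counted for both. Among 6000 genes, 22.7% of such windows held a Mig1 core and 34.1% held an STRE. A Mig1 core was found for 2 of the 10 members, REG2 and GLC7, and an STRE for 7 of 10, all but SNF4, SIP1 and SAK1. Of the members, REG2 alone had a pair of Mig1 cores, 349 to 344 and 324 to 319 bases before its start codon. How many of the 6000 windows held such a pair was not counted. Stretches of 70 bases around matches are shown for both called members and for TOS3, with the paralogs GAL83 and REG1 beside them, 5′ to 3′ on the strand of the gene and with the matches in capitals. They are from RefSeq R64, at chrII:338499-338568 and chrII:338361-338430 (REG2, minus strand), chrVII:96996-97065 (SIP2, plus strand), chrVII:165448-165517 (TOS3, minus strand), chrV:210347-210416 (GAL83, minus strand) and chrIV:501240-501309 (REG1, minus strand).

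REG2 Mig1 cores: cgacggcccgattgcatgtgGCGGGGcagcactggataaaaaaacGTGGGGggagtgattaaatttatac

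REG2 STRE: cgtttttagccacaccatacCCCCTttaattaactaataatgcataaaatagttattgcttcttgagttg

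SIP2 STRE: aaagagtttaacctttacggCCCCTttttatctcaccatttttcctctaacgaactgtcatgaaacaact

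TOS3 STRE: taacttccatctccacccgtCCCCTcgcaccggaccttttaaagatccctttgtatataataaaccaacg

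GAL83 STRE: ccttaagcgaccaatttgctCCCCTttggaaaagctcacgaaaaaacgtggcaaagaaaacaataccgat

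REG1 STRE: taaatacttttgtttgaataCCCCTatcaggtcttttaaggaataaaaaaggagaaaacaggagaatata

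The STRE was thus found before SIP2, with its 2.97-fold increase, and before its paralog GAL83, with 1.29-fold, and likewise before both REG2 and REG1. REG1, which did not pass the test, and SNF1 had 2 STREs each, and SIP2 and REG2 had 1 each. The REG1 match shown, 410 to 406 bases before the start codon, lies beyond the 220-base gap to the upstream neighbor. Its other match, 81 to 77 bases before the start codon, lies within this gap and is not shown. These are matches of letters only, as binding was not measured.

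The transcripts with the pattern most like a called member were sought by the Euclidean distance of log2 CPM, centered on each gene's mean, over the 6 libraries. For SIP2 these were SNF11 (distance 0.08), RIM8 (0.09) and DCS1 (0.09), with log2 fold changes of 1.57, 1.51 and 1.61. For REG2 they were GLG1 (distance 0.23), FRT2 (0.25) and GLK1 (0.28), with log2 fold changes of 2.93, 2.78 and 2.99. GLG1 encodes glycogenin, the primer of glycogen synthesis, and GLK1 a glucokinase. With 6 libraries in 2 conditions, such a distance reflects mostly the size of the change.

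The subunits of Glc7 other than REG1 and REG2 included larger changes than any member. Of 17 listed genes 5 were called, all higher, where 12.7% of all tested genes were called higher: GAC1, GIP2, PIG2, GIP1 and SDS22. GAC1, which directs Glc7 to glycogen synthase, went from 5.33 ± 1.54 to 321 ± 48.3 CPM (SD, n = 3), which is 5.89 on the log2 scale (edgeR, standard error 0.21, adjusted p = 2.29e-07). GIP2 and PIG2 followed with log2 fold changes of 4.98 and 2.37, and GIP1, a subunit needed in sporulation, with 1.52. PIG1, of the same list, rose by only 0.54 and was not called. SDS22, a conserved nuclear regulator of Glc7, had a log2 fold change of 1.15. At any fold change 13 of the 17 passed higher and 2 lower, beside 42.2% and 39.8% of all tested genes, with GIP3 the lowest at -0.40. Their median change was 0.59 on the log2 scale, beside 0.03 for all tested genes. GLC7 itself, with 0.13, changed less than the 5 called subunits, whereas BNI4 and SHP1, at -0.06 and 0.09, did not pass the test.

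Of 16 listed genes for transcription factors and other proteins that act downstream of Snf1, 7 were called higher and 1 lower, beside 12.7% and 6.03% of all tested genes. CAT8 and SIP4, activators of gluconeogenic genes, had log2 fold changes of 3.73 and 3.34, and ADR1 and RDS2, activators of genes for ethanol and glycerol use, 1.27 and 1.06. Of the repressors, NRG1 and MIG3 rose by 2.70 and 1.22 on the log2 scale, MIG3 from a low level of 3.79 ± 0.862 CPM (SD, n = 3). MIG2 was the gene called lower, at -1.95 (standard error 0.25, adjusted p = 0.000152, edgeR). NRG2, at -0.05, did not pass the test (adjusted p = 0.549, edgeR). MIG1, which encodes the main repressor controlled by Snf1, was not called, with 162 ± 3.17 CPM with sucrose and 193 ± 31.4 CPM without (SD, n = 3, adjusted p = 0.0613, edgeR). ROD1, an arrestin-related adaptor for transporter uptake, was at the threshold with 1.01 and was not called in 4 of 12 alternative settings, at 0.99 in each. The median of the list was 0.61, and 11 genes passed higher and 2 lower at any fold change, beside 42.2% and 39.8% of all tested genes.

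Of 10 other regulators of Snf1, SIP5, whose product binds both Reg1 and Snf1, was called higher (log2 fold change 1.29, standard error 0.06, adjusted p = 9.48e-07, edgeR) and STD1, whose product stimulates the kinase, was called lower (log2 fold change -1.54, standard error 0.07, adjusted p = 6.08e-07, edgeR). SSB1 and SSB2, near-identical chaperone genes whose separate counts are uncertain, lay at -0.80 and -0.77. The list thus had 1 gene called in each direction, beside 12.7% of all tested genes called higher and 6.03% lower. It had a median of 0.02. At any fold change 2 of the 10 genes were higher and 4 lower, beside 42.2% and 39.8% of all tested genes.

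Another pair of lists set GLC7 and SNF1 beside related enzymes. Of 11 other catalytic subunits of the PPP phosphatase family, PPZ2 was called higher, with a log2 fold change of 1.12, and PPT1 lower, with -1.15. Beside these stand 12.7% of all tested genes called higher and 6.03% called lower. The list had a median of 0.20, near the 0.13 of GLC7. Of 5 AMPK-related kinases, 0 were called by edgeR or by DESeq2, where edgeR called 18.7% of all tested genes. This held also at an unadjusted p below 0.05, since none of the 5 passed 2-fold. At any fold change KIN1 was higher, at 0.73, and GIN4, HSL1, KCC4 and KIN2 were lower, with GIN4 at -0.65. At any fold change 42.2% of all tested genes were higher and 39.8% lower. SNF1, at 0.59, thus lay above the median of these kinases, -0.36.

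**Figure D5:**
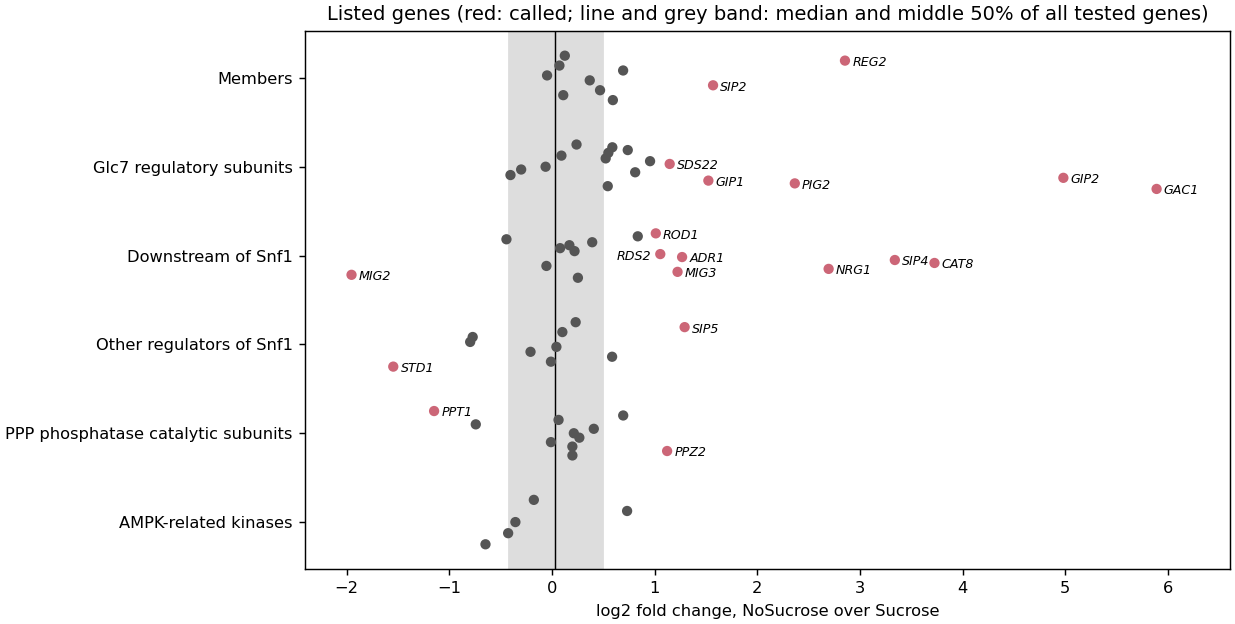
Log2 fold change after sucrose withdrawal (horizontal axis) of the 10 members and of 5 lists of related genes, 1 point per gene, with called genes in red and named. The vertical line and grey band are the median (0.03) and the middle 50% (-0.41 to 0.50) of all 5011 tested genes, and GAC1 at 5.89 is the largest change shown.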

How the data were processed

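Poly(A) RNA-seq libraries (strand-specific kit, paired reads of 50 nt) were made from 3 Sucrose and 3 NoSucrose cultures. The authors trimmed reads with Flexbar, ran Salmon on an R64-1-1 transcriptome with genomic decoys, and deposited expected counts (its estimated counts) before and after a filter on low counts. The filtered table is named as normalized, but its values were unnormalized. Its gene names are displaced, so each of its 5028 rows took its name from the 1 gene of the unfiltered table whose 6 values were identical. Sample headers were taken from the filtered table. They were checked on 1999 genes, 2 members among them, of a copy of the study's count table with titled columns. All 1999 were identical in 6 libraries within 0.01 counts or a relative 1e-05, whereas 2 of 6 headers of the unfiltered table passed, and those headers were not used.

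Counts were rounded, filtered (filterByExpr, min.count 15, min.total.count 20), TMM-scaled and tested with edgeR 4.0.16 (R 4.3.3; estimateDisp, glmQLFit, glmQLFTest), on condition alone, with thresholds of 0.05 (adjusted p) and 2 (fold change). Dividing the size of a log2 fold change by √F gave its standard error, log2 CPM has a prior count of 2, and intervals have a level of 95%. The biological coefficient of variation was 0.0708. Coding lengths came from RefSeq R64 and were found for 4979 of the 5011 tested genes. The code was tested on simulated data. Members and gene lists were chosen with earlier results of these data known. Named genes are the members, ELM1, the called and extreme genes of each list, and the 3 nearest patterns of each called member. Strain markers, upstream neighbors of members and some uncalled genes of the lists, picked by hand, are named too. Alternatives were RLE, library-size and upper-quartile scaling, no filter, DESeq2 1.42.0, a replicate block, each library left out, and adjusted p alone. Shares and ratios were tested by exact permutation.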

Additional observations from a re-analysis of the deposited data

How the results depend on the processing

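The 2 calls among the members, REG2 and SIP2, held in all 12 alternative fits (3 scalings, no filter, DESeq2, the replicate block and each library left out), and 6 members passed an adjusted p of 0.05 in each of them. The count of members past an adjusted p of 0.05, a comparison added after seeing the data, was 8 and ranged from 6 to 9, since SNF4, GLC7 and REG1 crossed the threshold. With the adjusted p alone as the rule, 8 members were called, 8 of them higher. So were 4107 genes in all, 82.0% of those tested (2114 higher, 1993 lower). Among the lists, this rule called 15 of 17 Glc7 subunits, 13 of 16 genes downstream of Snf1 and 6 of 10 other regulators. It also called 9 of 11 PPP phosphatases and 5 of 5 AMPK-related kinases. Library size alone gave 201 genes called lower in place of 302, moved the share of calls that were higher from 67.8% to 78.5%, moved the median over all genes to 0.14 from 0.03 (log2) and turned the log2 fold change of SAK1 from -0.05 to 0.068. The difference in SAK1's share, -0.24 percentage points, became 0.50 when counts were not divided by coding length and lay between -1.18 and 0.70 with each library left out, so it had no stable sign. That of REG2's share, 35.3, became 18.5 without division by coding length. No other share or ratio changed direction.

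The labels do not say whether libraries with the same replicate number were handled together. Deviations from the group means of libraries with the same number correlated at -0.137, -0.002 and 0.041 across genes. Those of libraries with different numbers correlated at -0.327 to 0.27. With 3 libraries in a group, these values cannot decide whether the numbers pair the libraries. With the replicate block 933 genes were called, 2 of them members, and 6 members passed the adjusted p alone. Small changes such as those of SNF4 and GLC7, near 0.1 on the log2 scale, are at the limit of 3 libraries against 3.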

Other observations

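SIP2 and GAL83 lie next to genes of the Mig family of repressors, a point noticed after the values were seen. MIG2 ends 331 bases before the start of SIP2 on the same strand, and MIG3 ends 459 bases before GAL83 on the same strand. Of the first pair, MIG2 lay at -1.95 on the log2 scale of fold change (edgeR, standard error 0.25, adjusted p = 0.000152) and SIP2 at 1.57. Of the second pair, MIG3 rose by 1.22 (standard error 0.19, adjusted p = 0.000511, edgeR) from 3.79 ± 0.862 to 8.95 ± 1.48 CPM (SD, n = 3), and GAL83 by 0.37. The neighboring genes therefore moved in opposite directions in the pair with SIP2 and in the same direction in the pair with GAL83. Among the other members, the upstream neighbor of SIP1, CAD1, rose by 1.14 and that of REG2, RFS1, by 0.98, while that of SNF4, CDC20, fell by 0.46 and that of SAK1, VFA1, fell by 0.37 (log2, edgeR). MPT5, upstream of TOS3, lay at 0.02 and did not pass the test. The neighbors of SNF1, REG1 and GLC7 have no value here.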
